A study of Salmo salar with 45 samples.

Results

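In the distal intestine of Atlantic salmon (*Salmo salar*), 100 genes were singled out whose RNA level varied from fish to fish together with *cd79b*. The members were chosen from the readout itself. CPM here means counts scaled to the library total after its adjustment by TMM size factors. Of 69389 genes in the count tables, 27857 had a mean CPM of at least 1 over 45 fish. For these, log2 CPM was taken and the mean of each diet was removed. The genes with the highest Pearson r to *cd79b* were kept. The gene *cd79b*, the gene *cd3e*, and every gene closer to *cd3e* than to *cd79b* were left out. The r of a member with *cd79b* is therefore a description of the choice and is given with no test.

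The study fed pre-smolt salmon in fresh water on 5 diets, with 9 fish per diet. MG was the positive control diet with MacroGard, a yeast β-glucan product. CD was the control diet without additive. LP20, LP100 and LP500 were the same control feed with a lower, medium and higher inclusion of HK L-137, a heat-killed *Lactiplantibacillus plantarum* preparation. Each library was made from the distal intestine of 1 fish, and the fish were kept in replicate tanks, but the labels do not say which fish shared a tank. Fish labels come in 15 runs of 3 consecutive numbers, 3 runs per diet, and these runs are used below only as a check. If fish of a run shared a tank, the p-values given here are too small.

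Cd79b is a signalling chain of the B-cell receptor, and Cd3e is a signalling chain of the T-cell receptor. Both carry motifs that are phosphorylated after antigen binding and that recruit Syk-family kinases, adaptors and exchange factors of the Vav family. The fish intestine has no Peyer's patches or lymph nodes, and its lymphocytes lie scattered in the epithelium and the lamina propria, where T cells are the main intraepithelial population. In RNA from whole tissue, fewer cells of a type and less RNA per cell cannot be told apart.

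The group was built on a B-cell gene, but the markers measured did not assign it to 1 cell type. The RNA level of *cd79b* followed that of *cd3e* with r = 0.83 (Spearman rho = 0.76) over 45 fish after removal of the diet means, and *cd3e* ranked as number 2 of all other genes by that measure. Without the LP20 fish and the LP100 fish farthest from the median of the members' mean level, r was 0.76. Within single diets, 9 fish each, r between the genes ranged from 0.69 in LP500 to 0.90 in LP20. The 45 libraries are shared by both genes, so these values describe the libraries. Of the 12 members with the highest r, 8 carried only a LOC number or an Ensembl ID. The group is therefore called here the *cd79b* group and is given no cell type.

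**Figure D1:**
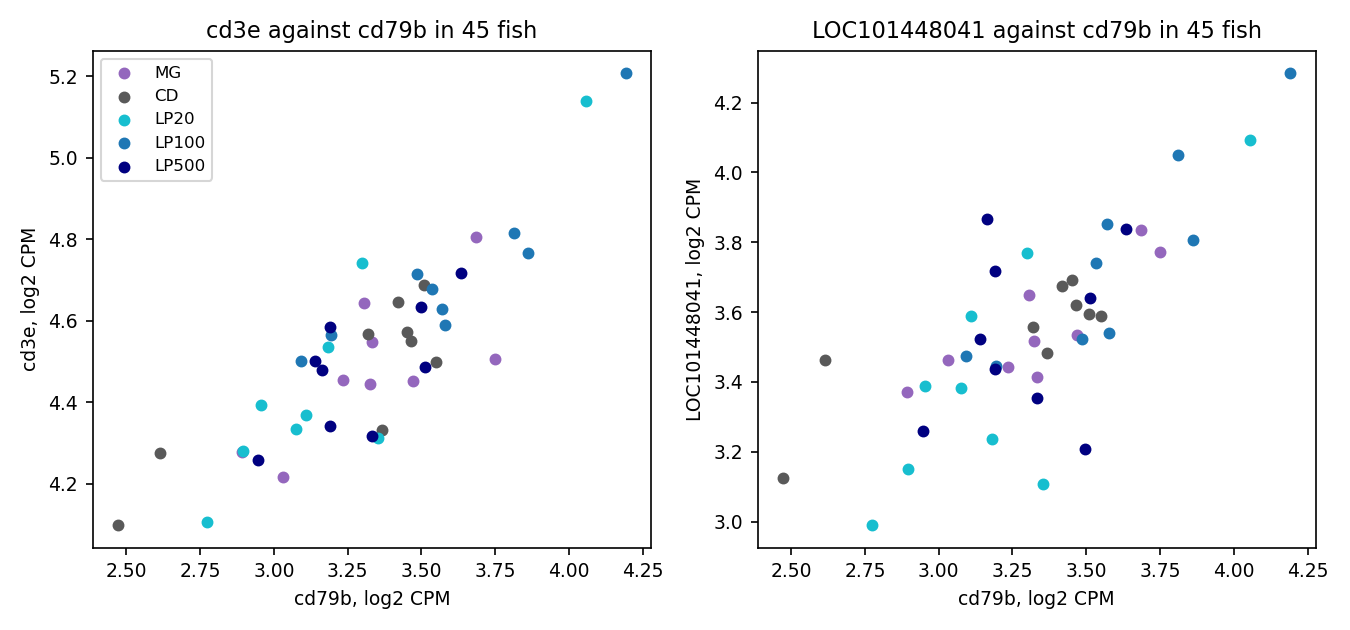
Level of *cd3e* (left) and of the neighbouring gene LOC101448041 (right) against that of *cd79b*, all in log2 CPM, 1 point per fish, coloured by diet. Both rose with *cd79b* over the 45 fish (r = 0.83 and 0.71 after removal of the diet means), and 1 LP100 and 1 LP20 fish lie at the upper right of both panels.

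The identity of *cd79b* itself needs a caveat. The gene (ENSSSAG00000094541) lies on chromosome 19 from 61414832 to 61425268 on the minus strand of the Ssal_v3.1 assembly, with 2582 bases of exon. Its name was assigned by position, and the gene models shared 0.517 of their joint span, just over the minimum of 0.5. The strand of the gene models was not compared when names were assigned. In addition, 1038 bases or 40.2% of its exons lie opposite exons of LOC101448041 on the plus strand. The authors counted with a strand setting, but whether the library kit marked strand is not given in the sources used here, so reads of these genes may not be fully separated. LOC101448041 averaged 11.8 CPM and had r = 0.71 with *cd79b* and r = 0.81 with *cd3e*. Per kilobase of exon, *cd79b* stood at 3.95 FPKM (CPM per kilobase of exon), against 20.2 FPKM for *cd3e* and 2.08 FPKM for LOC101448041.

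In CPM, *cd79b* ranged from 7.28 to 13.3 in MG fish (median 9.88), against 5.41 to 11.6 in CD fish (median 10.6). It ranged from 6.70 to 16.5 in LP20 fish (median 8.49), from 8.39 to 18.1 in LP100 fish (median 11.8) and from 7.56 to 12.3 in LP500 fish (median 8.99). All diets overlapped, and the 2 lowest fish of all were CD fish.

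The members' r with *cd79b* ran from 0.602 to 0.878 with a median of 0.650, whereas the median over all 27857 genes was −0.01 and the 95th percentile 0.389. Their r with *cd3e* was nearly as high, from 0.423 to 0.806 with a median of 0.5998. The gap between both r values had a median of 0.053 and was under 0.05 for 48 of the 100 members. A further 72 genes reached the members' lowest r with *cd79b* but were closer to *cd3e*, among them *cd8a*, the co-receptor of cytotoxic T cells (r = 0.63 with *cd79b* and 0.72 with *cd3e*), and *id3*, an inhibitor of E-protein transcription factors (0.75 and 0.78). The limit of 100 fell in a smooth part of the ranking. The last members, ENSSSAG00000099911 and LOC106612559, had r = 0.602, and the first genes outside, LOC106613488 and ENSSSAG00000098641, had r = 0.6005 and 0.59998.

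**Figure D2:**
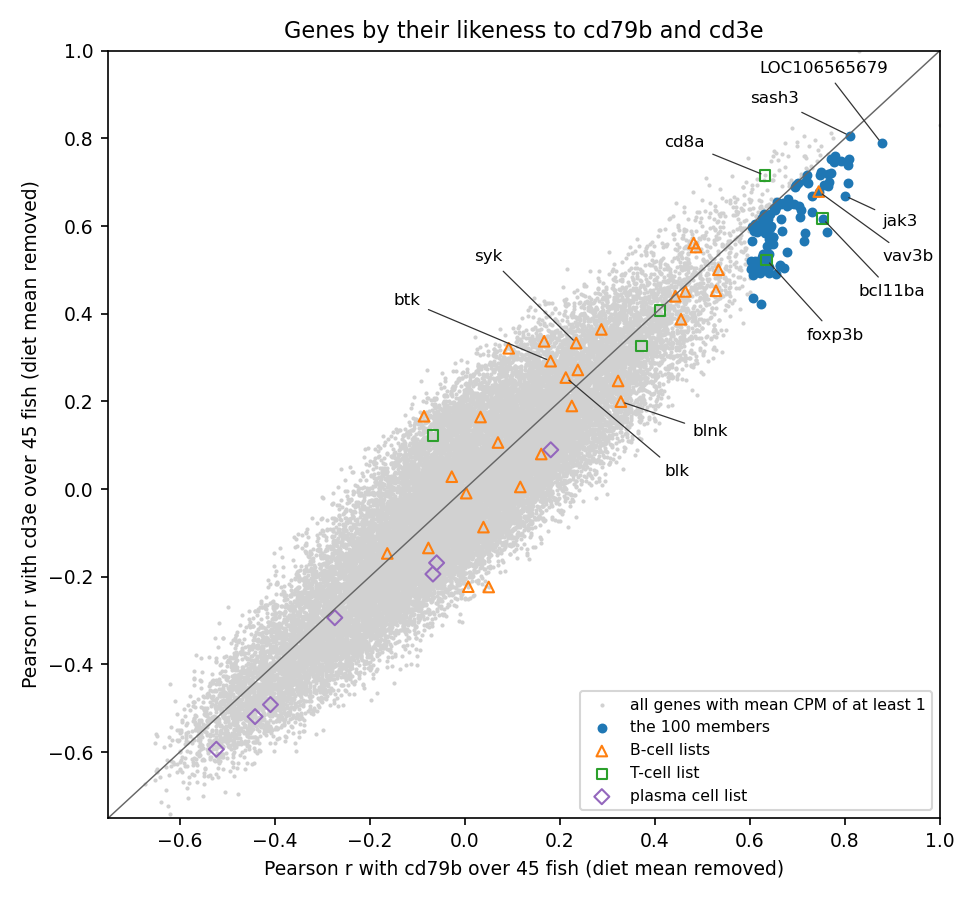
Pearson r with *cd79b* (x axis) and with *cd3e* (y axis) over 45 fish, diet means removed, for all 27857 genes with a mean CPM of at least 1 (grey), the 100 members (blue) and the genes of the B-cell, T-cell and plasma cell lists (open symbols); the line marks equal r. The members form the lower edge of the upper right tip, where r with *cd79b* is at least 0.602, and most genes of the B-cell lists lie far from it.

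Names were available for part of the group. Of the 100 members, 82 matched a RefSeq gene by position, 26 of them with a symbol and 56 with a LOC number only, and 18 matched none. The members spread over 26 chromosomes, with 11 on chromosome 13, which holds 4.79% of the expressed genes, and 9 on chromosome 9. Their median exon length was 4397.5 bases, against 3844 bases over all expressed genes, and their median level was 10.3 CPM, against 9.83 CPM. Members were thus of ordinary abundance, from 1.54 to 104 CPM.

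The gene most like *cd79b* was LOC106565679 (ENSSSAG00000041458, chromosome 12 from 66945993 to 66961884, plus strand), with r = 0.88 and a mean of 37.3 CPM. It stood 0.067 above the next member. It ranged from 33.1 to 43.2 CPM in MG fish (median 37.3), against 28.3 to 44.01 CPM in CD fish (median 39.3). It ranged from 26.7 to 54.7 CPM in LP20 fish (median 34.4), from 34.6 to 52.4 CPM in LP100 fish (median 40.2) and from 26.4 to 37.9 CPM in LP500 fish (median 32.97). LP500 and LP20 fish had the lowest medians, and every diet overlapped CD.

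Some members with a symbol have a known role in antigen receptor signalling, at places 2 to 65 of the ranking. *Sash3*, an adaptor of lymphocytes, had r = 0.81 with *cd79b* and the same r of 0.81 with *cd3e*, and averaged 19.6 CPM. *Vav3b*, a signalling protein downstream of both antigen receptors, had r = 0.75 and averaged 6.46 CPM. It was the only member on the B-cell receptor list. *Lcp2a*, a copy of the gene for an adaptor that links the T-cell receptor to phospholipase C signalling in mammals, had r = 0.64 and averaged 14.5 CPM. *Tbc1d10c*, known in mammals as an inhibitor of calcineurin and Ras in lymphocytes, had r = 0.77 and averaged 16.1 CPM. The positive sign of these r values follows from the rule.

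Cytokine receptor signalling was represented by *jak3*, the kinase bound to the common gamma chain of many interleukin receptors in mammals. It had r = 0.80 with *cd79b* and 0.67 with *cd3e*. It ranged from 14.7 to 22.7 CPM in MG fish (median 18.6), against 12.98 to 24.9 CPM in CD fish (median 20.5). It ranged from 13.9 to 29.8 CPM in LP20 fish (median 17.1), from 19.6 to 31.9 CPM in LP100 fish (median 21.9) and from 11.99 to 24.4 CPM in LP500 fish (median 17.8). Its highest fish was an LP100 fish and its lowest an LP500 fish, with all diets overlapping CD. *Il12rb1*, a receptor chain of the interleukin 12 family, had r = 0.63, and *traf1*, an adaptor of tumour necrosis factor receptors, had r = 0.64.

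The members on the T-cell list, 2 of its 7 expressed genes, were the transcription factors *bcl11ba* and *foxp3b*. Only 7 of the 26 symbols written for this list were matched by name, so most of the list was not analysed here. Over all expressed genes, 100 of 27857 were members. Of the other 5 on the list, *cd3e* (r = 0.83 with *cd79b*) was left out by the rule. *Cd8a* (0.63) was left out as closer to *cd3e*. The remaining genes were farther from *cd79b*, with r = 0.41 for *tbx21*, 0.37 for *themis* and −0.07 for *gata3*, transcription factors and a signalling protein of T cells. *Bcl11ba*, a copy of the gene that commits progenitors to the T-cell lineage in mice, had r = 0.75 with *cd79b* and 0.62 with *cd3e*. It ranged from 6.13 to 9.77 CPM in MG fish (median 7.30), against 4.52 to 9.74 CPM in CD fish (median 7.76). It ranged from 5.29 to 13.2 CPM in LP20 fish (median 6.48), from 6.03 to 10.5 CPM in LP100 fish (median 7.06) and from 5.32 to 7.08 CPM in LP500 fish (median 6.07). The LP500 fish lay within a narrow range at the low side of the CD fish, with the lowest CD fish below them all. *Bcl11ba* was not called with LP500 in the comparison of diets below (edgeR adjusted p = 0.333). *Foxp3b*, a copy of the gene for the regulatory T-cell factor of mammals, had r = 0.64 and averaged 4.22 CPM. *Itgae.2*, related to the integrin chain that holds T cells in the epithelium in mammals, had r = 0.64 and averaged 49.2 CPM.

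Further members with a symbol were *stk10* (r = 0.63), a kinase abundant in lymphocytes that phosphorylates ezrin-family proteins, *stk17al* (r = 0.70), a kinase of the death-associated family, *pstpip1a* (r = 0.64), a cytoskeletal adaptor of blood cells, and *nlrc3* (r = 0.77), a NOD-like receptor. *Ndrg1a* (r = 0.67) and *hif1an* (r = 0.61), an oxygen-dependent hydroxylase that acts on hypoxia-inducible factors, were on none of the marker lists. Nor was *dcp2* (r = 0.63), an mRNA decapping enzyme. The most abundant members were LOC106566799 with 104 CPM, *ndrg1a* with 100.6 CPM and LOC106584316 with 94.3 CPM. *Ndrg1a* overlaps LOC106588972 on the opposite strand of chromosome 27, and this pair of members had the highest r of all pairs, 0.97, so they may not be separate observations. Exons of 22 members overlapped a gene on the other strand by over 5% of their length, against 26.6% of all genes.

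Most genes of the B-cell lists were not members, as for all expressed genes, of which 100 of 27857 were members. The B-cell receptor list had 18 expressed genes, 1 of them *cd79b* and 1 a member. Over the other 16, the median r with *cd79b* was 0.26, and the most abundant of them were *inpp5d* (r = 0.44), *grb2* (0.04), *lyn* (0.05), *malt1* (0.16) and *ptpn6* (0.46). Their r ran from −0.16 to 0.53, with *pik3cd*, a lipid kinase of lymphocytes, and *vav3* both at 0.53, and 15 of the 16 were above 0. Of 11 expressed genes on the list of B-cell regulators none was a member, with a median r of 0.03. On that list *pou2af1*, a B-cell coactivator, averaged 0.730 CPM and fell under the limit of 1 CPM, as did *cd37* of the B-cell receptor list with 0.349 CPM and *cxcr5* of the B-cell surface list, the receptor that guides B cells to follicles, with 0.04001 CPM. *Cd79a*, *pax5* and *ighm* were not matched by symbol and were not analysed here. Symbols matched were 19 of 33 for the B-cell receptor list, 11 of 23 for the B-cell regulators and 7 of 22 for the plasma cell list.

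The mean level of the members in each fish, as log2 CPM minus each gene's mean over 45 fish, is called the group value. It ran from −0.46 in a CD fish to 0.64 in an LP20 fish, a 2.15-fold span. The within-diet standard deviation was 0.22. Pairs of members had r from 0.089 to 0.966 (median 0.512 over 4950 pairs), and the first principal component held 52.0% of their variance, followed by 4.93% on the next. The group value had r = 0.08 with log2 total counts (rho = 0.04, and r = 0.15 without the 2 farthest fish).

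By diet, the group value ranged from −0.30 to 0.31 in MG fish (median −0.00), against −0.46 to 0.18 in CD fish (median 0.11). It ranged from −0.34 to 0.64 in LP20 fish (median −0.13), from −0.08 to 0.51 in LP100 fish (median 0.15) and from −0.36 to 0.22 in LP500 fish (median −0.10). All diets overlapped. In CD, 7 fish lay between 0.06 and 0.18 and the remaining 2, both of label run 3, at −0.46 and −0.35. The diets accounted for 14.3% of the variance of the group value, against a median over all expressed genes of 11.9%. The 15 label runs lie within diets, so their share includes that of the diets. It was 43.2%, against a median of 35.0% over all expressed genes. The group value is a mean over many genes, so its shares and those of single genes are not like measures. Taken gene by gene, the members' median share was 14.7% for diets and 39.7% for label runs.

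**Figure D3:**
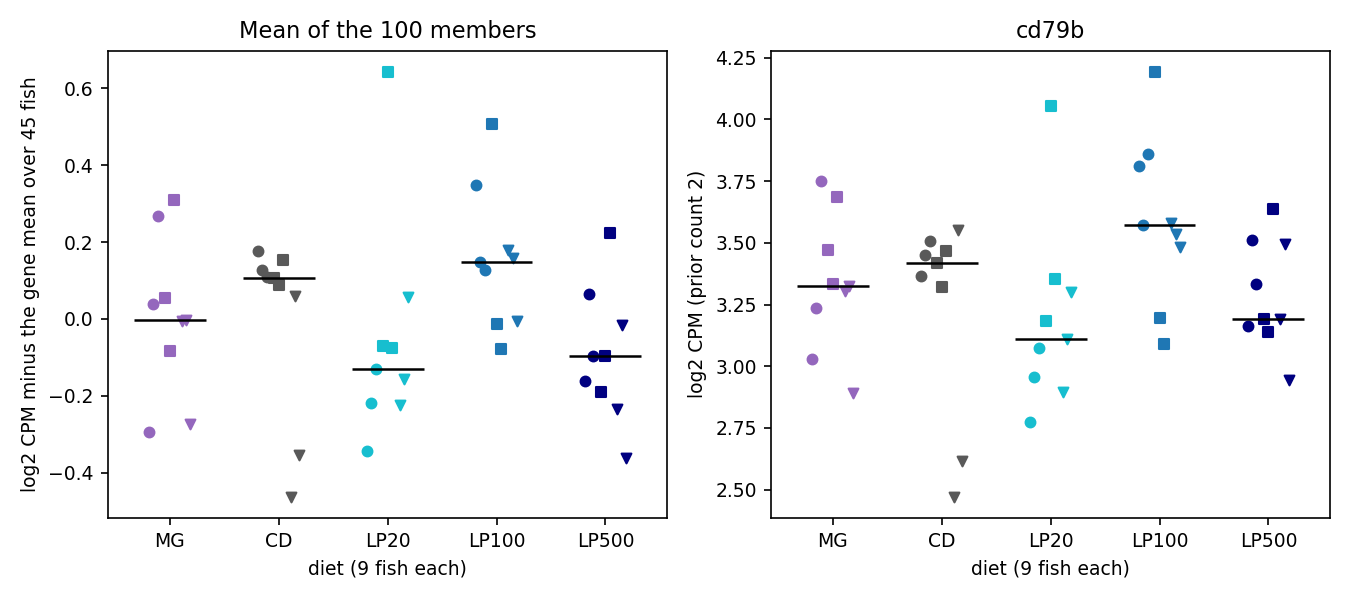
Group value of the 100 members (left, log2 CPM minus the gene mean over 45 fish) and *cd79b* (right, log2 CPM) in each of 9 fish per diet; circles, squares and triangles are label runs 1, 2 and 3, and the bar is the median. The group value ran from −0.46 in a CD fish to 0.64 in an LP20 fish, and all diets overlap.

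Other cell types were followed with marker lists, leaving members out of each list. After removal of the diet means, the group value had r = 0.69 with the 16 other genes of the B-cell receptor list (rho = 0.60, and 0.54 without the 2 farthest fish) and r = 0.60 with the 5 other genes of the T-cell list (rho = 0.53, and 0.50), which include *cd3e*. The B-cell receptor list holds many genes that T cells and macrophages also use, and the macrophage list of 8 genes had r = 0.44 (rho = 0.41, and 0.36). The B-cell regulators had r = 0.31 (rho = 0.17, and 0.07). The plasma cell list of 7 genes ran the other way, with r = −0.52 (rho = −0.50, and −0.47), as did the 17 cell cycle genes with r = −0.41 (rho = −0.37, and −0.53). The plasma cell genes measured, among them *hsp90b1*, *xbp1* and *manf*, serve protein secretion in many cells, including enterocytes. Enterocyte genes had r = −0.04, smooth muscle genes 0.11 and fibroblast genes −0.02. These 12 values are descriptions over 45 shared libraries. The rule left out genes closer to *cd3e*, and members were taken out of each list. The order of the B-cell receptor and T-cell lists therefore depends in part on the rule. Gene by gene, the median r with *cd79b* was 0.41 for the 5 T-cell genes, *cd3e* included, and 0.26 for the 16 B-cell receptor genes.

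**Figure D4:**
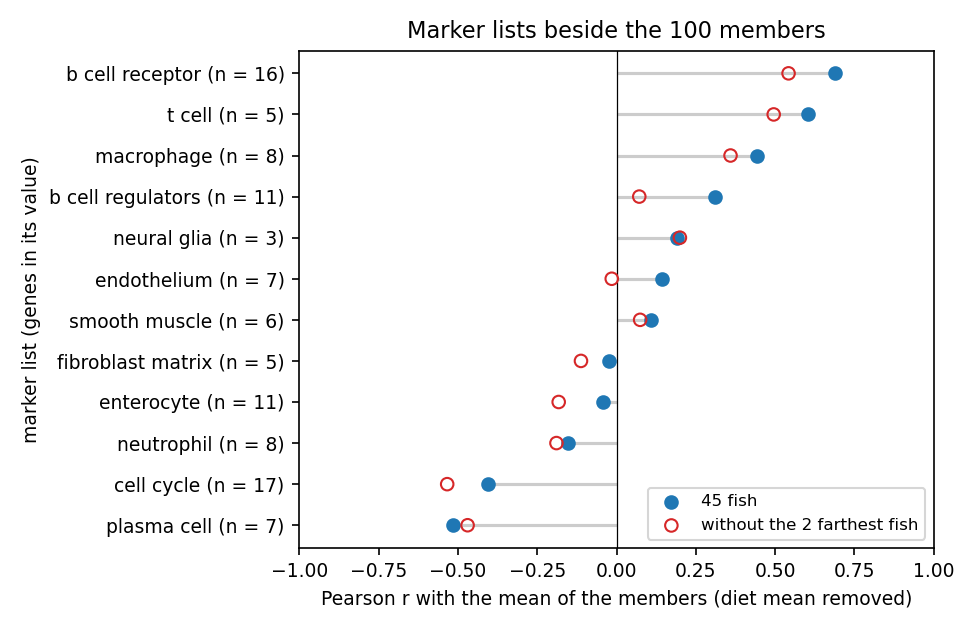
Pearson r of 12 marker lists with the group value over 45 fish, diet means removed (filled), and without the 2 fish farthest from the median (open); n is the number of genes in each list's value. The B-cell receptor (0.69) and T-cell (0.60) lists lie highest, in an order that depends in part on the rule, and the plasma cell list (−0.52) lowest.

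The diets were compared with CD by edgeR's quasi-likelihood test on all 45 fish, with Benjamini-Hochberg adjustment over 31729 genes and calls at an adjusted p under 0.05. All 100 members passed the filter on low counts. The rule removed diet means, so it did not use these differences. The diets share the CD fish, so their results are not independent of each other.

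With LP20, no member passed the test. Called members in edgeR were 0 higher (0% of all genes) and 0 lower (0%). DESeq2 also called 0 members, but its count over all genes is not given here. At an unadjusted p under 0.05 in edgeR there were 0 higher (8.75% of all genes) and 1 lower (4.13%). The median log2 fold change of the members was −0.04, against −0.00 over all genes, and 36 members were positive (49.4% of all genes). That median ran from −0.20 to 0.06 with a fish or label run left out, and was above 0 without LP20 fish 1, LP20 run 1 or 3, or CD run 1 or 2. For *cd79b* the log2 difference was −0.04 ± 0.16 (edgeR adjusted p = 0.952). The value after ± is an SE here and below. It was calculated as the absolute log2 fold change divided by the square root of the F value of the test, and edgeR does not report it. The smallest p values belonged to ENSSSAG00000120445 (−0.29), *stk10* (0.24) and LOC106607426 (−0.30), none of them called.

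With LP100, 1 member was higher (3.6% of all genes were called higher) and 0 were lower (0.473%). This was *stk10*, on chromosome 4 from 75351597 to 75425614. Its place in the group was not firm, with r = 0.631 with *cd79b* and 0.627 with *cd3e*. *Stk10* was chosen again in 20 of 45 settings with 1 fish left out, and in 6 of 11 other settings of the rule. It ranged from 19.9 to 35.4 CPM in LP100 fish (median 25.1), against 16.4 to 22.8 CPM in CD fish (median 18.9). The groups overlapped, with the LP100 median above every CD fish. On the log2 scale it was higher by 0.44 ± 0.12 (SE), with an adjusted p of 0.0324 in edgeR. *Stk10* was also higher than in CD with LP20 (0.24), LP500 (0.25) and MG (0.21), without being called. The call was lost, with adjusted p from 0.0590 to 0.0893, when any 1 of CD fish 2, 3, 5 and 8 or LP100 fish 3 and 4 was left out, when any label run except LP100 run 3 was left out (0.0731 to 0.182), with counts summed per label run (0.0698), and with a smooth muscle minus enterocyte covariate (0.854). Over all genes, edgeR called 1142 higher and 150 lower with LP100. It called 0 in total with the covariate or without CD run 1 or 2 or LP100 run 1 or 2. Those losses were thus not particular to *stk10*. In the other settings that lost the call, edgeR called 1486 genes in total without CD run 3 and 15 with summed counts. Without CD fish 2, 3, 5 or 8 it called 359, 0, 84 and 77, and without LP100 fish 3 or 4 it called 513 and 104. DESeq2 called 3 members higher (2068 genes in all), and the edgeR count was 5 without CD fish 6 (1306 genes in all), 3 without LP100 fish 7 (2417) and 2 without LP100 fish 5 (919).

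The other members leaned the same way with LP100 without being called. Of 100 members 85 had a positive log2 fold change, against 46.9% of all genes, and the median was 0.17, against −0.01. That median ran from 0.114 to 0.225 with a fish or label run left out. The median group value was 0.15 in LP100 fish and 0.11 in CD fish, among which CD fish 7 and 9 lay lowest at −0.46 and −0.35. At an unadjusted p under 0.05, 20 were higher (11.8% of all genes) and 1 lower (6.72%). Members vary together, so these counts do not stand for separate observations. *Lcp2a* ranged from 13.1 to 22.5 CPM in LP100 fish (median 16.6), against 11.3 to 16.7 CPM in CD fish (median 13.6), a log2 difference of 0.34 ± 0.11 with an adjusted p of 0.0559 in edgeR. *Ngap* had 0.38 ± 0.12 (adjusted p = 0.0628). *Cd79b* had 0.36 ± 0.16 and did not pass the adjustment (edgeR adjusted p = 0.194), and *cd3e* had 0.26 ± 0.10 (0.146).

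With LP500, 0 members were higher (7.45% of all genes) and 1 was lower (3.21%). This was LOC106566799 (ENSSSAG00000075232, chromosome 13 from 27975541 to 28010254), the most abundant member. It ranged from 78.1 to 105 CPM in LP500 fish (median 90.1), against 86.5 to 146 CPM in CD fish (median 110). The groups overlapped, with the LP500 fish at the low side. On the log2 scale the difference was −0.34 ± 0.10 (SE), with an adjusted p of 0.0174 in edgeR. The call was lost without CD fish 1 (adjusted p = 0.0594) or CD fish 4 (0.0558), without CD run 1 (0.239) or LP500 run 3 (0.111), with counts summed per label run (0.0867) and with the covariate (0.475). Over all genes, edgeR called 2365 higher and 1020 lower with LP500, 3 in total without CD run 1 and 0 with the covariate. In the other settings that lost this call, many genes were still called. These were 2185 in total without CD fish 1, 2586 without CD fish 4, 2246 without LP500 run 3 and 2154 with summed counts. The count of members was 3 without LP500 fish 6 (2856 genes in all) or CD run 3 (3759), and 2 without LP500 fish 3 (4713) or CD fish 7 (3858). This member had the lowest r with *cd3e* in the group, 0.42.

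With LP500, no other member was called. The median log2 fold change of the members was −0.10 (−0.158 to −0.016 with a fish or label run left out), against −0.00 over all genes. Of the members, 31 were positive (49.9% of all genes). At an unadjusted p under 0.05 there were 1 higher (14% of all genes) and 7 lower (10.9%). *Cd79b* had 0.04 ± 0.16 (edgeR adjusted p = 0.919). LOC106584316 had −0.23 and LOC106612288 −0.33, neither called. The 1 higher was *stk10*, with 0.25 (edgeR adjusted p = 0.187).

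With MG, 0 members were called in either direction by edgeR (0% of all genes each). DESeq2 also called 0 members, but its count over all genes is not given here. In edgeR 0 members reached an unadjusted p under 0.05 in either direction (5.42% of all genes higher and 1.71% lower). The median log2 fold change was 0.02, with 54 positive (51.1% of all genes). It ran from −0.056 to 0.074 with a fish or label run left out, and was below 0 without CD fish 7 or 9, CD run 3, MG fish 3 or 6, or MG run 2. *Cd79b* had 0.09 ± 0.16 (edgeR adjusted p = 0.937). The members with the smallest p values were *stk10* (0.21), LOC106572638 (−0.25) and LOC106589645 (0.20).

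**Figure D5:**
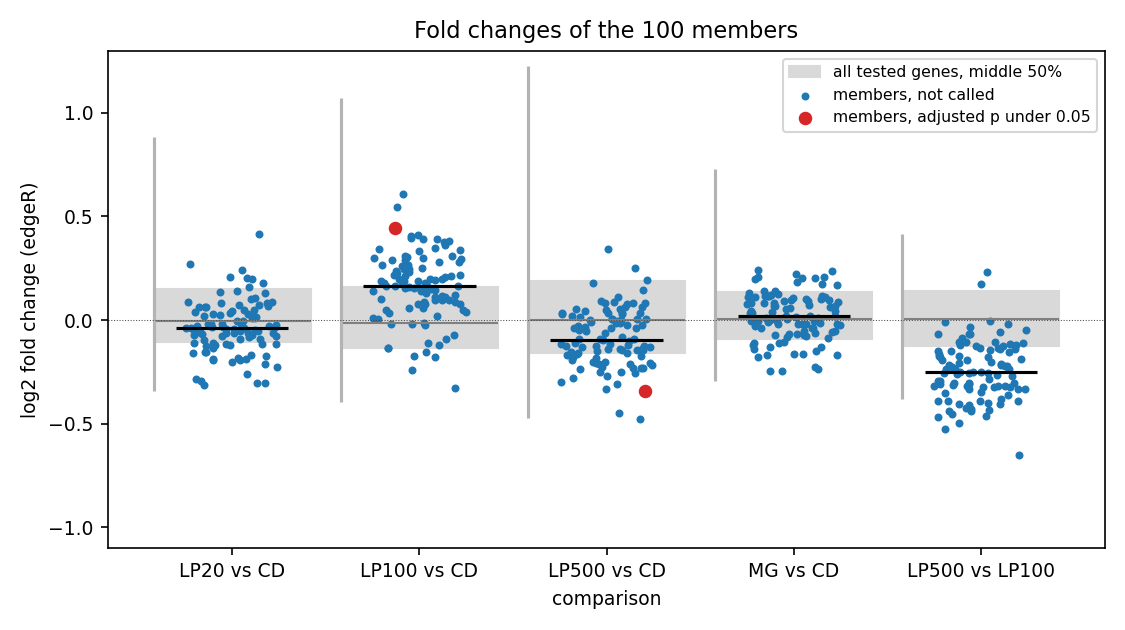
edgeR log2 fold changes of the 100 members in each comparison (points; red, adjusted p under 0.05), with their median as a black bar; grey boxes hold the middle 50% of all 31729 tested genes and the grey lines at the left of each box their middle 90%. The members' median was −0.04, 0.17, −0.10 and 0.02 for LP20, LP100, LP500 and MG against CD, and −0.25 for LP500 against LP100.

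The comparison of LP500 with LP100 was added after the medians of both diets were seen to differ in sign, and a difference chosen in this way is a description. The members' median log2 fold change was −0.25, against 0.00 over all genes, with 98 of 100 negative, against 49.4% of all genes. edgeR called 0 members higher and 0 lower (0% of all genes each). DESeq2 also called 0 members, but its count over all genes is not given here. At an unadjusted p under 0.05 in edgeR there were 1 higher (6.47%) and 42 lower (4.96%). Members vary together, so these counts do not stand for separate observations. Without LP500 fish 6, 3 members were called by edgeR, with adjusted p from 0.0486 to 0.049998, just under the limit. The count over all genes in that setting is not given here. A test of all diets together called 0 members, with a smallest adjusted p of 0.0540, against 0.041% of all genes, and 20 members had an unadjusted p under 0.05 (19.7% of all genes).

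Markers of other cell types also differed between diets. Of all genes, 3.6% were called higher with LP100 and 7.45% with LP500. The 5 fibroblast genes were all called higher with LP100 and with LP500, with median log2 fold changes of 1.73 and 1.92, and 3 of 6 smooth muscle genes were called higher with LP500. Of 9 endothelial genes, 4 were called higher with LP100 and 7 with LP500 (median log2 fold changes 1.25 and 1.72), and of 8 neutrophil genes 1 with LP100 and 4 with LP500 (0.57 and 0.78). The r of both lists with the group value was 0.14 for endothelium and −0.15 for neutrophils. With LP20 and MG no gene at all was called in the edgeR fit, whereas the authors reported called genes for both with their own processing. For LP20 and MG, the median log2 fold changes in the edgeR fit were still 1.26 and 0.95 for fibroblast genes. They were 1.22 and 0.97 for endothelial genes. The fibroblast list ranged from −1.86 to 1.21 in LP100 fish (median 0.91) and from −1.62 to 2.05 in LP500 fish (median 0.75), against −2.04 to 0.45 in CD fish (median −1.46). Its r with the group value was −0.02 within diets, and with the smooth muscle minus enterocyte covariate in the fit no gene at all was called with LP100 or LP500, members included. The part of these markers in the diet results was not tested further.

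Membership depended on the rule. Of the 100 members, 98 were chosen again with other size factors or a smaller prior count, 83 with a limit of 5 CPM, and 72 with Spearman's rho. When genes closer to *cd3e* were not left out, 56 remained. Over 11 settings of this kind, single diets left out included, 22 members were chosen every time, 34 were chosen whichever single fish was left out, and 19 met both conditions. These 19 included LOC106565679, *jak3*, *tbc1d10c*, *bcl11ba* and *vav3b*, whereas *sash3* was kept in 6 of the 11 settings.

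Sequencing depth ranged from 9660750 to 22377591 counted fragments per fish (median 14634308). At that depth *cd79b* had 71 to 273 counts per fish.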

How the data were processed

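RNA of the distal intestine of 45 fish was sequenced. The authors aligned reads to the Ssal_v3.1 assembly and deposited raw counts per gene, 1 table per fish, made with featureCounts 1.5.1 of Subread with a strand setting; the aligner is not given in the sources used here. Gene names were taken from RefSeq annotation of Ssal_v3.1, pairing gene models that were each other's best match and shared at least 0.5 of their joint span. Strand was not compared in this pairing. It named 30322 of 69389 genes, of which 8775 had a true symbol and the rest LOC numbers. Counts were analysed with edgeR 4.0.16 (filterByExpr, TMM, quasi-likelihood test) in R 4.3.3; DESeq2 1.42.0 was an alternative. CPM and log2 CPM used TMM factors, and log2 CPM also a prior count of 2. Group, replicate and label run came from the labels.

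The members and the gene lists were chosen with earlier results of these data known. Of 21 marker lists, 12 with at least 3 expressed genes were used; lists of B-cell surface genes, MHC class II, cytotoxic cells, erythrocytes, thrombocytes, goblet cells, enteroendocrine cells, acinar pancreas and lymphoid chemokines had too few and gave no value. Most genes named here were drawn from fixed sets, but not every gene of a set is named. The sets were *cd79b*, the 12 members with the highest r, members on a list and the 3 members with the smallest p per comparison. Further sets were the members and genes next to the limit, the 3 most abundant members, and members with a symbol. Members with a symbol that are not described include *pcmtd1*, *fryl*, *blcap* and *hif1al2*. Alternatives were other size factors, no filter, only both diets compared, counts summed per label run, a tissue covariate, other forms of the rule, and leaving out label runs, diets or single fish. A planned count of promoter motifs was not run.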

Additional observations from a re-analysis of the deposited data

Results flagged for a closer look

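In 70 groups of 9 fish (14 measures in 5 diets), 10 had a fish whose gap to its nearest neighbour exceeded Dixon's limit as a share of the group's range, which chance passes in about 1 in 20 groups. Most of the measures are members, chosen because they followed *cd79b* in these same fish, so the measures vary together. The 10 are therefore not separate events and cannot be set against the rate of 1 in 20. LP20 fish 5 accounted for 8 of them. It had a group value of 0.64, against 0.06 in the next LP20 fish, and 16.5 CPM of *cd79b*, against 10.1 CPM. The same fish stood highest in LP20 with 54.7 CPM of LOC106565679, 13.2 CPM of *bcl11ba*, 22.8 CPM of *tbc1d10c*, 29.3 CPM of *sash3*, 6.48 CPM of *foxp3b* and 33.8 CPM of *stk10*. Its library held 13649855 counts, within the range of the other fish. LP100 fish 4 had 36.8 CPM of *cd3e*, against 28.0 CPM in the next LP100 fish, and LP500 fish 6 had 8.998 CPM of *vav3b*, against 6.31 CPM in the next LP500 fish. No cause was tested.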

How the results depend on the processing

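With LP100, the count of called members was 3 by DESeq2 (2068 genes in all) and 4 with only the fish of both diets (2254). It was 0 with counts summed per label run (15 genes in all) and 0 with the tissue covariate, which left 0 calls over all genes. The count ranged from 0 to 5 when a fish or label run was left out. With LP500 it was 0 with summed counts (2154 genes in all) and 0 with the covariate (0 in all). It was 0 to 3 when a fish or label run was left out. For LP500 against LP100 that range was 0 to 3, but the counts over all genes in those settings are not given here. The range for LP500 against LP100 can therefore not be set against a background. With LP20 and MG it stayed at 0 in every setting run. The log2 fold change of *cd79b* was never called in any setting; with LP500 it was −0.013 with the covariate, and with fish or runs left out it ranged from −0.070 to 0.119 with LP500, from −0.256 to 0.095 with LP20 and from −0.031 to 0.182 with MG. Of 100 members, 61 were chosen again with label run means removed, 56 with the genes closer to *cd3e* kept, and 57 without LP20 fish 5 and CD fish 7, the fish with the highest and lowest group value, and 63 to 98 when a diet or fish was left out. Single-fish settings, the setting without both fish and LP500 against LP100 were added after seeing the data. No paired analysis was possible because the replicate numbers follow accession order and tie no fish across diets. The causes of these shifts were not tested. Names by position, missing for 18 members, and tanks that the labels do not give limit what can be read from the group.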
